A study of Homo sapiens with 12 samples.

Results

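The RNA of RKO cells treated with thymoquinone (TQ) was compared directly with that of RKO cells treated with 5-fluorouracil (5-FU), to find the genes that tell the 2 drugs apart. RKO is a human colon carcinoma line. The comparison used the 3 TQ arrays and the 3 5-FU arrays, 6 of the 12 arrays in the series, chosen by their titles. TQ was given at 20 µM and 5-FU at 10 µg/mL (76.8 µM), each for 24 h, so the concentrations were not matched. The other arrays were 3 of control cells, called untreated in the labels and DMSO-treated in the methods, and 3 of cells given both drugs at these doses. They entered the fit for its estimate of the spread and are shown beside the genes described. The labels do not say which arrays came from separate cultures, so p-values reflect only how these arrays vary, which may be technical. Signals are log2 values from Affymetrix oligonucleotide arrays, and a difference is the mean of the TQ arrays minus that of the 5-FU arrays on the log2 scale. A gene is called higher with a drug only where the Benjamini-Hochberg adjusted p from limma, over all probe sets, was under 0.05.

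TQ is a quinone from the seeds of Nigella sativa that reacts with thiols of proteins and glutathione, and electrophiles of this kind are known to disturb protein folding and redox balance. 5-FU is an antimetabolite. One of its products blocks thymidylate synthase, and others enter RNA and DNA, which stalls replication and disturbs rRNA maturation. NF-κB is a transcription factor held inactive by sequestering inhibitors, the IκB proteins, whose own genes are among its targets.

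One array stood apart. 5-FU replicate 3 had a mean correlation of 0.911 with the other 5-FU arrays, its most similar array was replicate 2 of the combination, and its median signal was 6.33 against 6.43 to 6.55 elsewhere. In it 2265 genes lay more than 1 log2 unit below the mean of 5-FU replicates 1 and 2 and 779 lay more than 1 unit above, while the median over all genes lay 0.44 above. The median SD over genes was 0.117 among the TQ arrays and 0.433 among the 5-FU arrays, and the median gap between 5-FU replicates 1 and 2 was 0.109. Values below are over all arrays unless said otherwise, and most counts of calls are given without 5-FU replicate 3 as well. The cells carried RKO's epithelial mark KRT18 at a mean of 11.99 with TQ and 12.58 with 5-FU and EPCAM at 9.14 in both, whereas CDH1 (3.60 and 3.78) and KRT20 (2.83 and 3.26) were near the bottom of the scale. Of 9 measured leukocyte markers and 8 endothelial markers none differed by limma's adjusted p (at an unadjusted p under 0.05, 0 and 4). The mean of the leukocyte markers was 4.46 to 4.59 with TQ, 4.52 and 4.58 in 5-FU replicates 1 and 2, and 5.18 in 5-FU replicate 3.

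The 2 drugs differed at 2262 of 22215 probe sets (10.2%), of which 1468 were higher with 5-FU and 794 higher with TQ. Without 5-FU replicate 3 the count was 3048 (13.7%), with 1863 higher with 5-FU and 1185 higher with TQ. In both fits 2120 probe sets passed in the same direction and 0 in opposite directions (7029 and 5965 passed at an unadjusted p under 0.05). By gene, taking for each the probe set of highest mean signal, 931 of 11963 were higher with 5-FU (7.78%) and 393 higher with TQ (3.29%). Without the array that stood apart these were 1189 (9.94%) and 626 (5.23%). The median difference over all genes was -0.18, and -0.05 without that array. The count also depended on single other arrays, being 1134, 791 and 728 without TQ replicate 1, 2 or 3, 1457 without control replicate 2 and 4213 without 5-FU replicate 1.

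A stricter group of 346 genes passed in both fits by at least 2-fold, with no overlap between TQ and 5-FU arrays. It held 206 genes higher with 5-FU (1.72% of genes) and 140 higher with TQ (1.17%). In the first set the median difference was -1.49 over all arrays and -1.28 without 5-FU replicate 3, and in the second it was 1.75 and 1.29. 5-FU replicate 3 was the highest 5-FU array for 165 of the 206 genes and the lowest for 124 of the 140, so it widened both differences. When each of the 12 arrays was left out in turn, 185 of the 206 genes kept their call every time and 42 of the 140 did. The sign could not change, because the rule required no overlap between the drugs' arrays. The fit without 5-FU replicate 3 was part of the rule too. Of the 140, 61, 45 and 42 passed without TQ replicate 1, 2 or 3, 97, 84 and 99 without control replicate 1, 2 or 3, and 94 without TQ+5-FU replicate 3. Fitted on the 6 TQ and 5-FU arrays alone, 98 of the 206 and 19 of the 140 passed. On the 5 arrays without 5-FU replicate 3 all 346 passed, which is no separate check because the genes were chosen to pass without that array.

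**Figure D1:**
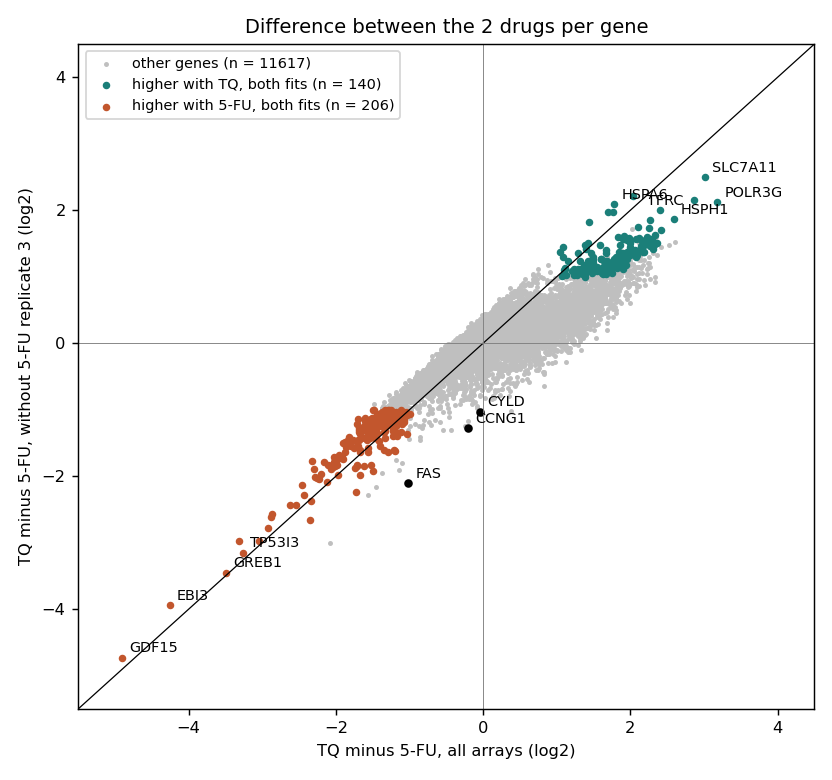
Difference between TQ and 5-FU (log2) for 11963 genes, over all arrays (x) and without 5-FU replicate 3 (y), with the line of equality. The 206 genes higher with 5-FU lie close to the line, most of the 140 genes higher with TQ lie below it, and FAS, CCNG1 and CYLD (black) lie further from 0 without that array.

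The largest difference among the genes called was in a p53 target. GDF15, a secreted stress cytokine, read 7.27, 7.17 and 6.97 with TQ and 11.84, 11.90 and 12.40 with 5-FU, against a control mean of 7.70. Its groups lay far apart, and it was higher with 5-FU by 4.91 (SE 0.18, limma adjusted p = 6.4e-07). TP53I3, a quinone oxidoreductase, read 8.58, 8.44 and 8.44 with TQ and 11.62, 11.65 and 11.98 with 5-FU, a difference of 3.26 in size (SE 0.13, limma adjusted p = 1e-06). DDB2, which recognises damaged DNA in nucleotide excision repair, read 8.41, 8.37 and 8.25 with TQ and 11.33, 11.30 and 11.56 with 5-FU (3.05 in size, SE 0.11, limma adjusted p = 6.4e-07). In both of the latter genes the TQ arrays lay below the control means of 8.66 and 8.80, and the 5-FU arrays differed among themselves by far less than from any TQ array.

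Of 24 measured genes in a list of p53 targets, 14 were higher with 5-FU, 0 with TQ, and the median difference was -1.12. Without 5-FU replicate 3, 23 of the 24 were higher with 5-FU and the median was -1.45, and the smallest count with 1 array left out was 9 (TQ replicate 2). Besides the genes above, PLK3 (2.87 in size), a stress-responsive kinase, PHLDA3 (2.28), which restrains AKT, the pore-forming apoptosis protein BAX (1.72) and the repair factor XPC (1.22) were higher with 5-FU. CDKN1A, which encodes the arrest protein p21, differed by less: it read 10.78, 10.49 and 10.5 with TQ and 11.12, 11.24 and 11.69 with 5-FU (0.76 in size, SE 0.15, limma adjusted p = 0.013), and the call was lost without TQ replicate 2 or 3. MDM2, a ubiquitin ligase, was higher with 5-FU by 0.81 (limma adjusted p = 0.033).

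Several p53 targets were split by the displaced array. FAS, the death receptor, read 8.96, 9.23 and 9.17 with TQ and 11.34, 11.13 and 7.97 with 5-FU. 5-FU replicates 1 and 2 lay above every TQ array and replicate 3 below them, so the difference of -1.02 (SE 0.75) did not pass (limma adjusted p = 0.33), while without it FAS was 2.11 higher with 5-FU (SE 0.36, limma adjusted p = 0.0037). CCNG1, cyclin G1, read 12.67, 12.52 and 9.37 with 5-FU against 11.19 to 11.41 with TQ. PLK2, a polo-like kinase, read 7.37, 7.15 and 4.47 with 5-FU against 4.01 to 4.41 with TQ, and it passed only without replicate 3 (limma adjusted p = 0.073, then 0.00046). CYLD, a deubiquitinase that limits NF-κB, moved in the same way, from -0.04 (limma adjusted p = 0.97) to -1.03 (0.047). ACTA2, smooth muscle actin and the neighbour of FAS, stood in the p53 list and is also a fibroblast marker. It read 7.16, 7.12 and 7.08 with TQ and 9.72, 9.75 and 10.52 with 5-FU (2.88 in size, limma adjusted p = 3.7e-05), and its other probe set had the opposite sign. None of the other 11 measured fibroblast markers differed by the adjusted p, and 2 of them did at an unadjusted p under 0.05.

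NF-κB targets and feedback regulators were the list with the largest share of calls over all arrays. Of 25 measured genes 20 were higher with 5-FU (80.0%) and 0 with TQ, with a median of -1.44, and without 5-FU replicate 3 the count was 22 and the median -1.19. Of these genes EBI3, a cytokine subunit of IL-27 and IL-35, differed most. It read 5.08, 4.65 and 4.75 with TQ and 8.80, 8.74 and 9.73 with 5-FU, against a control mean of 5.17 (4.26 in size, SE 0.25, 19.2-fold, limma adjusted p = 1.3e-05). TRAF1, an adaptor of TNF receptors, read 6.64, 6.36 and 6.47 with TQ and 9.47, 9.44 and 10.5 with 5-FU (3.32 in size, limma adjusted p = 8.4e-05). All 5-FU arrays lay at least 2 log2 units above all TQ arrays in both genes.

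The inhibitors that close the NF-κB loop moved with the effectors. NFKBIA, which encodes IκBα, read 10.03, 9.85 and 9.59 with TQ and 11.01, 11.20 and 11.65 with 5-FU (1.46 in size, SE 0.19, limma adjusted p = 0.0013). TNFAIP3, the ubiquitin editor A20, read 7.0, 6.95 and 6.83 with TQ and 8.43, 8.35 and 8.22 with 5-FU (1.41, SE 0.11, limma adjusted p = 6.3e-05), and here replicate 3 was the lowest 5-FU array. The subunits RELB and NFKB2 were higher with 5-FU by 1.51 and 1.44, and NFKB1 was not called over all arrays (-0.33). Among the effectors, the adhesion molecule ICAM1 (2.21 in size), the dendritic cell antigen CD83 (1.97), the growth factor CSF1 (1.94) and the interferon regulatory factor IRF1 (1.80) were higher with 5-FU. The chemokine CXCL8 read 7.81, 7.88 and 6.32 with 5-FU and 5.78, 5.51 and 5.55 with TQ. Its call (limma adjusted p = 0.013) was lost without TQ replicate 2 or 3. CXCL1, CXCL2 and CXCL3 were higher with 5-FU by 1.70, 1.51 and 1.23, and since these genes are close copies their probe sets may share signal. IL6 stayed at 3.58 to 4.26 in all 6 arrays. Of other genes that the study followed by RT-qPCR or blot, STK3 and EIF2AK3 did not pass in either fit, and BIRC3 was not analysed here.

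The promoters of this list are shown for the letters of the κB element, GGG and TTCC with any 3 bases between them on either strand, because the members differed together. RefSeq (GRCh38.p14) gave a window of 250 bases before to 50 after the start for 21 of the 25 genes, and 11 of them held these letters. Of the 16 with a window that were higher with 5-FU, 8 held them, as did 3 of the 5 that were not called. The letters lay in 7.22% of the windows of the 9563 array genes matched and 6.47% of all 27305 windows, and the list was written from known NF-κB targets, so nothing is read from that contrast. A match is a description of the sequence and does not show binding. Each line gives the gene's own strand 5′ to 3′, with the κB letters in capitals and 10 bases on either side. TNFAIP3, CXCL1, CXCL2 and CXCL3 had 2 matches each, of which only the first is in capitals.
NFKBIA, chr14:35404811-35404840, minus strand: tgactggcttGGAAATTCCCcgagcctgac
TNFAIP3, chr6:137867182-137867211, plus strand: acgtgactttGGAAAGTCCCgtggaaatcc
CXCL1, chr4:73869304-73869333, plus strand: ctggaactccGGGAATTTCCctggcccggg
CXCL2, chr4:74099254-74099283, minus strand: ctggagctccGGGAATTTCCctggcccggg
CXCL3, chr4:74038749-74038778, minus strand: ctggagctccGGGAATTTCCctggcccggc
CCL20, chr2:227813753-227813782, plus strand: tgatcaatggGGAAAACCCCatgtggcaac
IL32, chr16:3065294-3065323, plus strand: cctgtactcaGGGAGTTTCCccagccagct
EBI3, chr19:4229299-4229328, plus strand: ccccaccctcGGGGCCTTCCgagcaggggt
NFKB1, not called over all arrays, chr4:102501300-102501329, plus strand: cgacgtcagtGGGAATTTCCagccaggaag
IL6, not called, chr7:22727117-22727146, plus strand: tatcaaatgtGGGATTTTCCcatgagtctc
LTB, not called, chr6:31582492-31582521, minus strand: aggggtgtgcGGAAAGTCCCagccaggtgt
The element began 79, 78 and 79 bases before the start in CXCL1, CXCL2 and CXCL3, 81 in NFKBIA and 214 in EBI3. Over the whole stricter group, 18 of the 165 matched genes higher with 5-FU (10.9%) and 5 of the 111 matched genes higher with TQ (4.5%) held the letters. TRAF1 and ICAM1, among the most different members, had no match in the window.

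**Figure D2:**
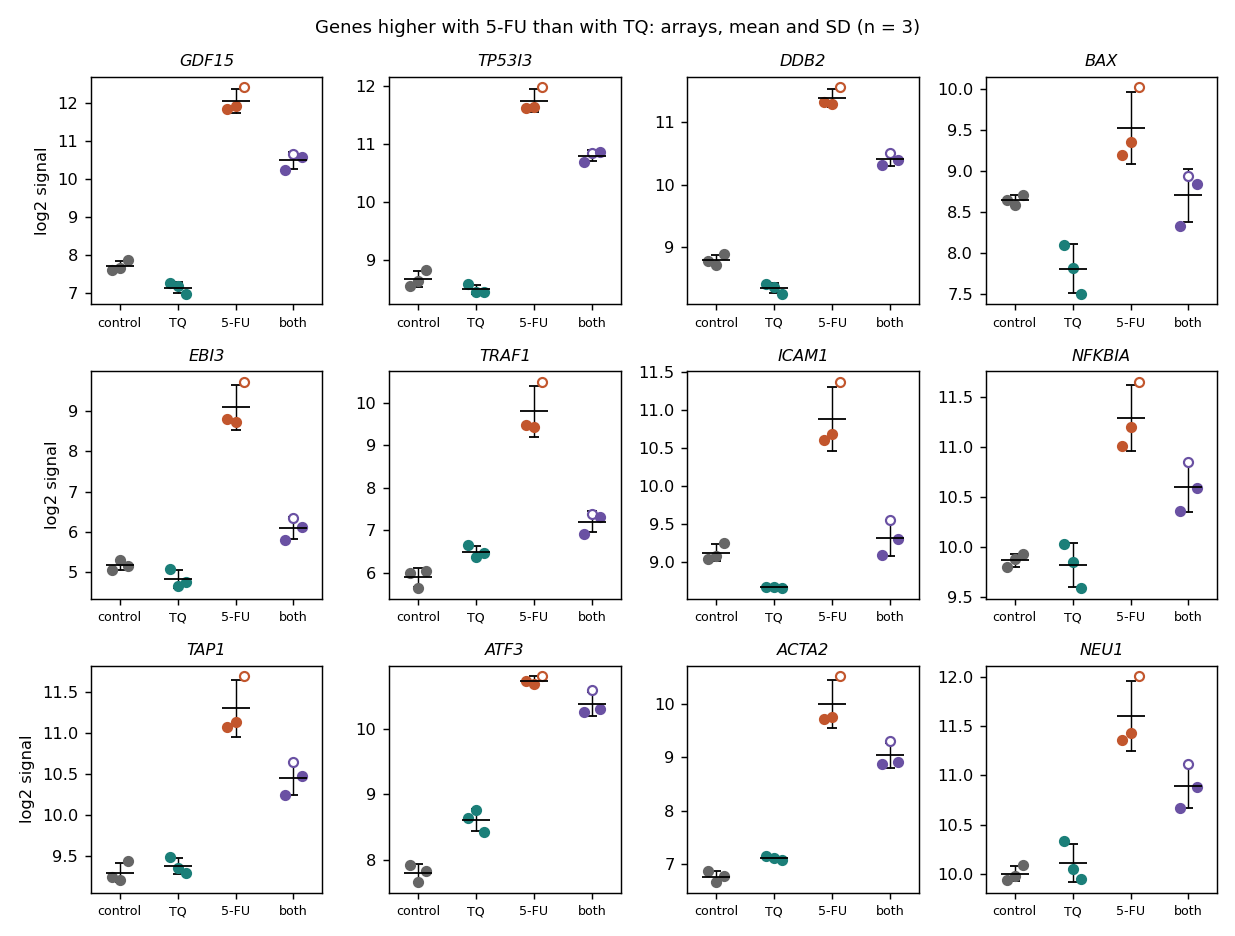
Log2 signal of 12 genes in every array, with mean and SD (n = 3 per group), in control, TQ, 5-FU and combination (both) cells. Open circles mark 5-FU replicate 3 and TQ+5-FU replicate 2. All 12 genes are from the stricter group, so all 5-FU arrays lie above all TQ arrays by the rule that chose them.

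Interferon-stimulated and antigen presentation genes had the largest share of calls after the NF-κB and p53 lists. Of 35 measured, 16 were higher with 5-FU (45.7%) and 0 with TQ (median -0.63), and without replicate 3 the count was 19 (median -0.43). The smallest count with 1 array left out was 9 (TQ replicate 2). TAP1, the peptide transporter that loads MHC class I, read 9.49, 9.36 and 9.30 with TQ and 11.07, 11.13 and 11.69 with 5-FU (1.92 in size, SE 0.17, limma adjusted p = 0.00016). ISG15, a ubiquitin-like modifier, read 11.26, 10.86 and 10.83 with TQ and 12.27, 12.31 and 12.71 with 5-FU (1.45, limma adjusted p = 0.00054). Both genes are in the stricter group, whose rule required that the drugs' arrays not overlap. The transcription factor IRF7 (1.70 in size), the nuclease ISG20 (1.40) and the RNA sensor OAS3 (1.25) were higher with 5-FU too, as were the immunoproteasome subunits PSMB9 (1.15) and PSMB8 (0.98) and the class I chain HLA-B (0.83).

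Apoptosis genes differed in fewer members and on both sides of the pathway. Of 20 BCL-2 family and apoptosome genes, 8 were higher with 5-FU and 0 with TQ (median -0.44), 9 without 5-FU replicate 3 and 4 without TQ replicate 3. They included the death-promoting BAX, BIK (1.69 in size), BAK1 (0.97) and BAD (0.93) as well as the protective BCL2L1 (1.15) and BCL2A1 (0.90). BIK read 8.58, 8.26 and 8.28 with TQ and 9.67, 9.74 and 10.78 with 5-FU. Of 20 death receptor genes, 3 were higher with 5-FU, namely the initiator caspase CASP10 (1.16), the TRAIL receptor TNFRSF10B (1.02) and the decoy receptor TNFRSF10D (0.86), 7 without 5-FU replicate 3 and 2 without TQ replicate 1. TNFRSF10B read 10.77, 10.93 and 10.87 with TQ and 11.96, 11.86 and 11.79 with 5-FU.

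Autophagy and lysosome genes were higher with 5-FU in 11 of 41 (26.8%) and with TQ in 0 (median -0.31), 15 without 5-FU replicate 3 and 4 without TQ replicate 3. The sialidase NEU1 read 10.33, 10.05 and 9.95 with TQ and 11.36, 11.43 and 12.01 with 5-FU (1.49 in size, limma adjusted p = 0.0013). GABARAPL2, an ATG8-family protein of autophagosome membranes, read 11.32, 11.39 and 11.30 with TQ and 12.56, 12.59 and 12.39 with 5-FU (1.18, limma adjusted p = 8e-05). The kinase ULK1, which starts autophagy, differed by 1.04 and the receptor OPTN also by 1.04.

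Immediate early genes divided between the drugs. Of 32 measured, 11 were higher with 5-FU and 3 with TQ, and 11 and 5 without 5-FU replicate 3. Without TQ replicate 3 the first count was 6, and without TQ replicate 2 the second was 2. ATF3, a stress-induced repressor, read 8.64, 8.76 and 8.43 with TQ and 10.72, 10.67 and 10.80 with 5-FU, against a control mean of 7.81 (2.12 in size, limma adjusted p = 1.6e-05). The AP-1 subunits FOSL2 (1.69), JUND (1.57) and JUNB (1.5) were higher with 5-FU. KLF4, a zinc finger factor of epithelial differentiation, was higher with TQ. It read 9.09, 9.15 and 9.06 with TQ and 7.11, 7.15 and 7.93 with 5-FU, on either side of a control mean of 8.08 (difference 1.70, SE 0.21, limma adjusted p = 0.001), and the combination had a mean of 9.98. Neither drug passed against control for KLF4 (limma adjusted p = 0.084 with TQ and 0.088 with 5-FU). KLF10, a TGF-β-induced relative, was higher with TQ by 1.43 and MYC by 0.60, the latter call being lost without TQ replicate 2 or 3. MYC lay below the control mean with both drugs (-0.36 with TQ and -0.96 with 5-FU).

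Among the heat shock chaperones, HSPA6 and HSPH1 separated the drugs most. HSPA6, a strictly inducible HSP70, read 8.29, 8.23 and 7.98 with TQ and 5.77, 6.38 and 7.0 with 5-FU, against a control mean of 5.22 (difference 1.78, SE 0.28, limma adjusted p = 0.0039). HSPH1, the HSP110 co-chaperone, read 10.49, 10.65 and 10.65 with TQ and 8.93, 8.56 and 6.55 with 5-FU, against a control mean of 8.90 (2.59, SE 0.50, limma adjusted p = 0.012). The displaced array lay nearest to TQ in HSPA6 and furthest from it in HSPH1, and both genes passed without it (2.09 and 1.86). Of 26 measured chaperone genes 4 were higher with TQ (15.4%) and 2 with 5-FU, with a median of 0.46, and without replicate 3 they were 7 and 3, with a median of 0.30. Without TQ replicate 2 the counts were 1 and 0. The other members higher with TQ were the co-chaperones BAG3 (0.72) and STIP1 (0.34), and those higher with 5-FU were DNAJB5 (-1.26) and HSPB1 (-0.43). HSP90AA1 (1.06, limma adjusted p = 0.14) and DNAJA1 (1.35, limma adjusted p = 0.20) did not pass. The heat shock core letters GAANNTTC lay in 0 of 13 matched windows of the 15 genes highest with TQ, too few windows to read anything from. In the stricter group they lay in 6 of 111 matched windows of genes higher with TQ (5.41%) and 9 of 165 higher with 5-FU (5.45%). The windows of all matched array genes had 5.2%.

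SLC7A11 and TFRC were among the genes highest with TQ. SLC7A11, the cystine importer that feeds glutathione synthesis, read 8.32, 8.36 and 8.26 with TQ and 5.94, 5.67 and 4.30 with 5-FU (difference 3.01, SE 0.55, 8.03-fold, limma adjusted p = 0.0083). Its control mean of 7.99 lay beside the TQ arrays, so the gap was mainly below control on the 5-FU side (-2.68 against control, limma adjusted p = 0.015). TFRC, the transferrin receptor, read 11.74, 11.79 and 11.82 with TQ and 9.72, 9.53 and 7.52 with 5-FU (2.86, limma adjusted p = 0.01), with a control mean of 10.67 between the drugs. Neither drug passed against control for TFRC (limma adjusted p = 0.57 with TQ and 0.095 with 5-FU). In both genes replicate 3 was the lowest 5-FU array, and the differences without it were 2.50 and 2.16. Over all arrays SLC7A11 was the only one of 26 measured NRF2 targets that was higher with TQ. The aldo-keto reductase AKR1B10 was the only one higher with 5-FU (-1.35, limma adjusted p = 0.0023). That is 3.85% in each direction, against 3.29% (TQ) and 7.78% (5-FU) of all genes. Without replicate 3, 2 passed in each direction (7.69%, against 5.23% and 9.94% of all genes). The electrophile-responsive enzymes HMOX1 (-0.22, SE 0.21) and NQO1 (-0.17, SE 0.09) did not pass. Metallothioneins gave 0 calls of 10 by limma in either direction, and 0 at an unadjusted p under 0.05. At these shares over all genes, 10 genes are too few to read that as a result about the family.

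ATF4 targets and amino acid supply genes were higher with TQ in 5 of 28 (17.9%) and with 5-FU in 3 (10.7%), or 6 and 4 without 5-FU replicate 3. The median was -0.01, with 14 differences on each side of 0. ATF3 (-2.12) and DDIT4 (-0.94) were among those higher with 5-FU, and DDIT3 did not pass (0.37, limma adjusted p = 0.44). Against control, ATF3 lay above with both drugs (0.80 with TQ and 2.92 with 5-FU). DDIT4 lay below with both (-1.73 and -0.79). The count with 5-FU was 1 without TQ replicate 2. ASNS, asparagine synthetase, read 11.28, 11.37 and 11.30 with TQ and 10.25, 10.34 and 9.53 with 5-FU (difference 1.28, limma adjusted p = 0.0031). Its control mean was 11.32, level with TQ. The alanyl-tRNA synthetase AARS1 (0.55), ATF4 itself (0.51) and the amino acid carrier SLC7A5 (0.88) were higher with TQ, and the SLC7A5 call was lost in 9 of the 12 fits without 1 array. Unfolded protein response genes gave 1 call in each direction of 22, and 1 with TQ and 2 with 5-FU without 5-FU replicate 3.

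**Figure D3:**
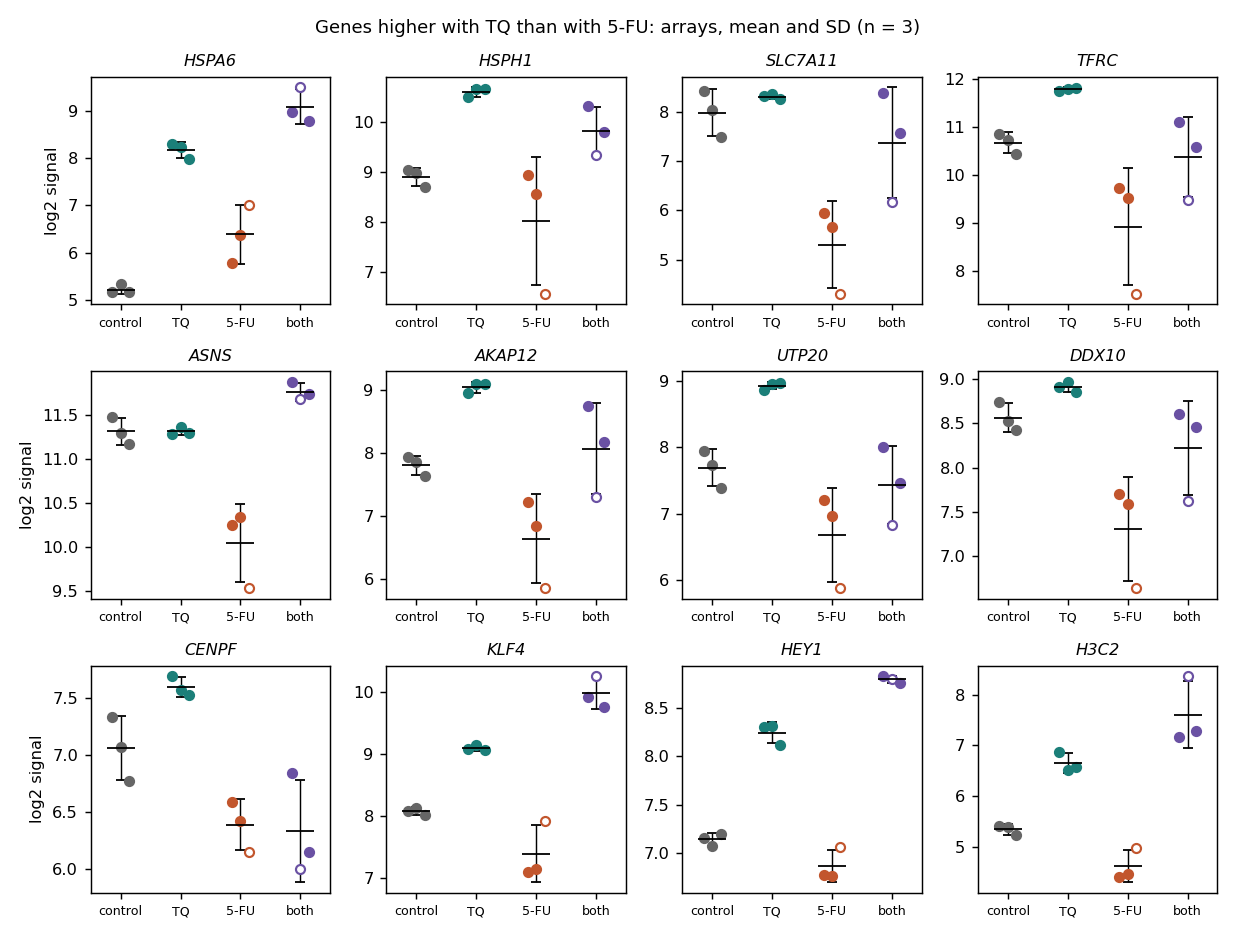
Log2 signal of 12 genes in every array, with mean and SD (n = 3 per group), in control, TQ, 5-FU and combination (both) cells. Open circles mark 5-FU replicate 3 and TQ+5-FU replicate 2. All 12 genes are from the stricter group, so all TQ arrays lie above all 5-FU arrays by the rule that chose them. 5-FU replicate 3 is the lowest 5-FU array in all but HSPA6, KLF4, HEY1 and H3C2.

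Nucleolar ribosome biogenesis had the largest share of calls higher with TQ. Of 34 measured genes 12 were higher with TQ (35.3%) and 0 with 5-FU, the median was 0.66, and 32 of the 34 differences were above 0. Without 5-FU replicate 3 the count was 16 and the median 0.50, and without TQ replicate 3 the count was 6. Against the control mean the list medians were -0.03, 0.02 and -0.02 in the TQ arrays. In the 5-FU arrays they were -0.46, -0.45 and -0.93, so the gap of the list lay mainly below control on the 5-FU side. UTP20, a component of the small subunit processome, read 8.87, 8.96 and 8.98 with TQ and 7.2, 6.97 and 5.87 with 5-FU, against a control mean of 7.69 (2.26, SE 0.36, limma adjusted p = 0.0041). The helicase DDX10 read 8.91, 8.97 and 8.85 with TQ and 7.70, 7.59 and 6.64 with 5-FU (1.60, limma adjusted p = 0.0098). NOLC1, a nucleolar chaperone of snoRNPs, differed by 1.42, and the acetyltransferase NAT10 by 0.63. The RNA polymerase III subunit POLR3G, outside this list, had the largest difference over all arrays among the stricter genes higher with TQ. It read 8.55, 9.04 and 8.97 with TQ and 6.95, 6.52 and 3.53 with 5-FU (3.18, SE 0.77, limma adjusted p = 0.028), but 2.12 without replicate 3, below SLC7A11 (2.50) and TFRC (2.16), and its call was lost in 4 of the 12 fits without 1 array. Cytosolic ribosomal protein genes gave 0 calls of 44 by limma (1 at an unadjusted p under 0.05) and a median of 0.00.

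Genes of mitosis, replication and repair had members on both sides. Of 51 mitosis and spindle genes 8 were higher with TQ (15.7%) and 2 with 5-FU, with a median of 0.73 that fell to 0.26 without replicate 3, when the counts were 9 and 5. With TQ replicate 2 left out, or by Tukey's HSD over all arrays, 1 mitosis gene was higher with TQ. CENPF, a kinetochore protein, read 7.69, 7.57 and 7.52 with TQ and 6.59, 6.42 and 6.15 with 5-FU (1.21, limma adjusted p = 0.0091), though 1 of its other probe sets had the opposite sign. The spindle protein HMMR differed by 2.10 and AURKA by 1.30, whereas securin, PTTG1, was higher with 5-FU (-0.66). The HMMR call was lost without TQ replicate 2 or 3. Of 48 replication genes 6 were higher with 5-FU, led by the ligase LIG1 (-1.17) and POLA2 (-1.0), and 1 with TQ, although the median was 0.26 and 29 of the 48 differences were above 0. The replication counts were 9 and 4 without 5-FU replicate 3, with a median of 0.03, and the first was 3 without TQ replicate 1. Whether the mitosis and replication lists differ was not tested. Of 37 checkpoint and repair genes ATR (2.23), WRN (1.78) and RAD50 (1.37) were higher with TQ and RAD51C higher with 5-FU. These counts were 5 and 1 without 5-FU replicate 3, and without 1 other array the count higher with TQ went from 0 (TQ replicate 1) to 10 (5-FU replicate 1). RAD51C read 9.07, 9.17 and 9.10 with TQ and 10.64, 10.66 and 10.24 with 5-FU (-1.40, limma adjusted p = 0.00014). The ATR and WRN calls were lost when any 1 of the TQ arrays was left out. Splicing factors (4 of 57) and chromatin remodellers (7 of 53) were higher with TQ in 7.02% and 13.2%, with medians of 0.59 and 0.36, which became 0.23 and 0.24 without 5-FU replicate 3, when 11 genes of each list were called. Without TQ replicate 1 the chromatin count was 1, and without TQ replicate 2 the splicing count was 0.

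Genes of the ID, BMP and TGF-β list and of the EMT and urokinase list lay on both sides. Of 21 measured genes in the first, 2 were higher with TQ and 4 with 5-FU (4 and 3 without 5-FU replicate 3), with a median of -0.24, and of 24 in the second, 2 and 3 (4 and 3), with a median of -0.26. The 4 calls with 5-FU in the first, among them SMAD7 (-1.28) and TGFB1 (-0.89), fell to 0 without control replicate 1. HEY1, a Notch- and BMP-responsive repressor, read 8.30, 8.31 and 8.12 with TQ and 6.77, 6.76 and 7.06 with 5-FU, around a control mean of 7.14 (1.38, SE 0.11, limma adjusted p = 9.3e-05). Against control HEY1 passed with TQ (limma adjusted p = 0.005) and not with 5-FU (0.22). ZEB1, a repressor of epithelial genes, differed by 1.91 and SNAI1 by 1.05 (a call lost in 6 of the 12 fits without 1 array), whereas the urokinase gene PLAU (-1.37) and CD44 (-1.22) of the same list were higher with 5-FU. Against control PLAU stood at -1.25 with TQ and 0.13 with 5-FU, so its gap lay mainly below control on the TQ side. The histone gene H3C2 read 6.88, 6.52 and 6.57 with TQ and 4.41, 4.46 and 4.98 with 5-FU (2.04, limma adjusted p = 0.0022), and was the only one of 21 core histone genes called over all arrays (3 without replicate 3), in a family whose members can share signal. AKAP12, a scaffold of protein kinase A, differed by 2.40. ID2, an inhibitor of bHLH factors, did not pass over all arrays (0.54, limma adjusted p = 0.081) and passed without replicate 3 (0.75, 0.0032). Among cell cycle genes, the CDK inhibitor CDKN1C (-1.88) and cyclin G2, CCNG2 (-1.68), were higher with 5-FU, and the transcription factor E2F5 (1.07) and cyclin D1, CCND1 (0.81), higher with TQ.

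The enzymes that 5-FU acts on or passes through were called over all arrays at shares near those of all genes. TYMS, thymidylate synthase, read 12.40, 12.51 and 12.51 with TQ and 12.60, 12.62 and 12.55 with 5-FU (-0.11, SE 0.09, limma adjusted p = 0.34). The groups did not overlap, but the gap was near the spread. TK1, the salvage thymidine kinase, read 9.63, 9.44 and 9.31 with TQ and 10.45, 10.56 and 11.26 with 5-FU (-1.30, limma adjusted p = 0.0037). Of 24 measured genes of this metabolism, TK1 and the uracil glycosylase SMUG1 (-0.86) were higher with 5-FU and the uridine phosphorylase UPP1 (0.51) higher with TQ. That is 8.33% higher with 5-FU and 4.17% with TQ, against 7.78% and 3.29% of all genes. Leaving out 5-FU replicate 3 gave 4 higher with 5-FU and 1 with TQ (16.7% and 4.17%, against 9.94% and 5.23% of all genes). The UPP1 call held in 1 of the 12 fits without 1 array.

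**Figure D4:**
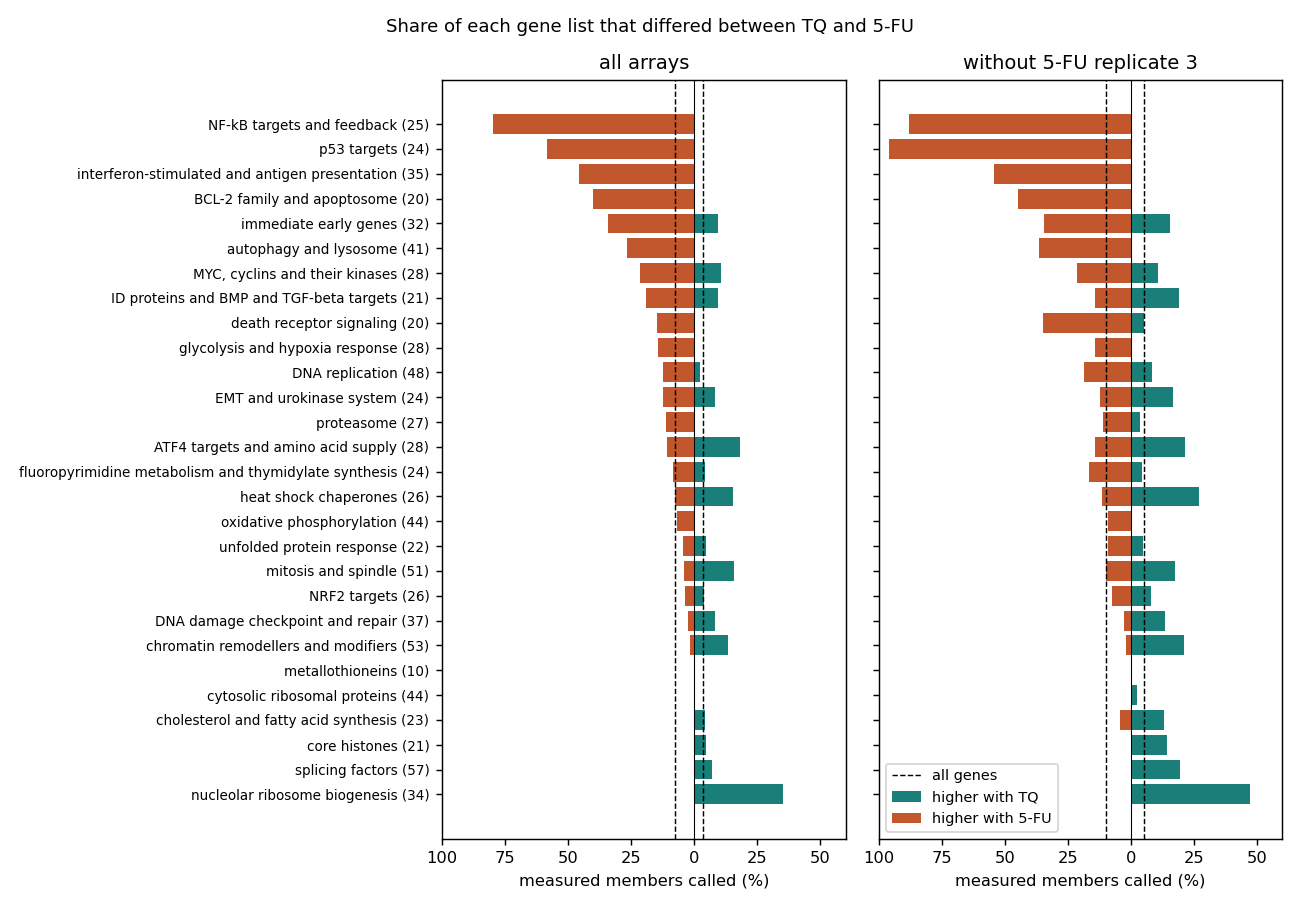
Share of the measured members of each gene list (number in brackets) that was higher with TQ (right of 0) or with 5-FU (left of 0), over all arrays and without 5-FU replicate 3. Dashed lines give the same shares over all genes, 3.29% and 7.78% on the left and 5.23% and 9.94% on the right.

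The share of calls in a list depended on which arrays gave the spread. Fitted on the 6 TQ and 5-FU arrays alone, 8 NF-κB genes, 7 p53 targets and 4 interferon genes were higher with 5-FU, and 0 heat shock or ribosome biogenesis genes were higher with TQ. On the 5 arrays without 5-FU replicate 3 these counts were 22, 23, 22, 13 and 25.

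Other lists gave few calls in number, though not always a small share. Glycolysis and hypoxia genes and the proteasome had shares higher with 5-FU above the 7.78% of all genes. Oxidative phosphorylation lay below it, at 6.82%. Without 5-FU replicate 3 these lists lay on the same sides of the 9.94% of all genes. Oxidative phosphorylation (3 of 44 higher with 5-FU) and the proteasome (3 of 27) gave 0 calls with TQ by limma (0 and 3 at an unadjusted p under 0.05, against 16 and 6 higher with 5-FU). Without 5-FU replicate 3 the oxidative phosphorylation genes had 4 higher with 5-FU and the proteasome 3, with 1 higher with TQ. The first count moved from 1 (without control replicate 1) to 8 (without 5-FU replicate 1) and the second fell to 0 without TQ replicate 2. Glycolysis and hypoxia genes gave 4 of 28 higher with 5-FU, led by NDRG1 (-1.61) and the enolase ENO2 (-1.07), and 0 with TQ (4 at an unadjusted p under 0.05), with the same counts without 5-FU replicate 3. Of 23 lipid synthesis genes the desaturase SCD alone was called over all arrays, higher with TQ by 1.23, and 3 were higher with TQ and 1 with 5-FU without replicate 3.

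The control arrays show on which side of untreated cells each difference lay, as a description with no test. For the 206 genes higher with 5-FU the medians were 1.14, 1.23 and 1.71 above the control mean in the 5-FU arrays and -0.09, -0.20 and -0.25 in the TQ arrays. The control mean was nearer to TQ for 198 of them. For the 140 genes higher with TQ the medians were 0.76, 0.89 and 0.87 above control in the TQ arrays and -0.43, -0.58 and -1.94 in the 5-FU arrays. By these medians they lay on both sides of control. The same genes also spread within the control arrays (0.19, 0.01 and -0.21) and within the combination arrays (0.30, -0.94 and -0.18). Across all genes, 5-FU replicate 3 minus the mean of replicates 1 and 2 correlated at -0.70 with TQ minus control. How much of the difference in these genes follows this spread between replicates was not tested. On a scale with 0 at the 5-FU mean and 1 at the TQ mean, control had a median of 0.88 over the first set and 0.54 over the second, or 0.36 without 5-FU replicate 3. The combination had a median of 0.47 over the first set and 0.41 over the second, and 0.42 and 0.18 without 5-FU replicate 3. Leaving out TQ+5-FU replicate 2 gave 0.54 and 0.60 over all other arrays, and 0.48 and 0.43 with 5-FU replicate 3 left out too. The combination mean lay between those of the drugs for 205 of the 206 genes and 129 of the 140, and without 5-FU replicate 3 for 205 and 105, with 26 of the 140 then beyond 5-FU. Of 1256 genes called in both fits, 845 had TQ and 5-FU means on opposite sides of all 3 controls, 198 with TQ above and 647 with 5-FU above. The control arrays varied little (median SD 0.091), so small shifts counted. TP53I3 was among the 845 with TQ at -0.18 against control (limma adjusted p = 0.72). The same count over all genes was not made, so it does not show opposite responses to the drugs.

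**Figure D5:**
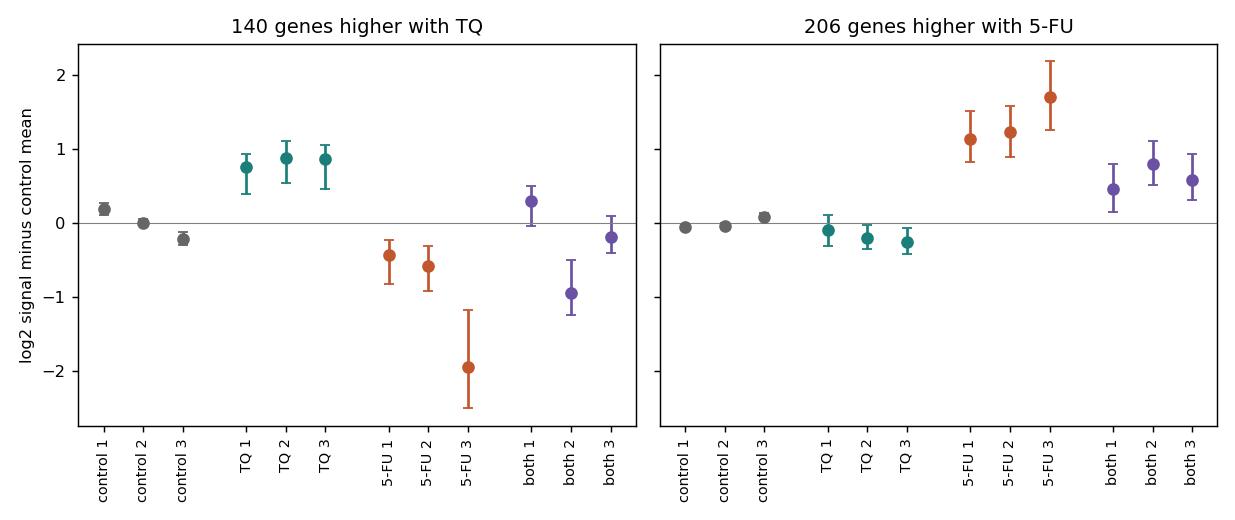
Median (points) and quartiles (bars) of log2 signal minus the control mean in each array, for the 140 genes higher with TQ and the 206 higher with 5-FU, which were chosen on the TQ and 5-FU arrays. In the right panel only the 5-FU and combination arrays lie clearly above 0; in the left panel the TQ arrays lie above 0 and 5-FU replicate 3 lies lowest.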

How the data were processed

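RNA of RKO cells was hybridised to 12 arrays (control, TQ, 5-FU and both drugs, 3 each). The authors normalized them by RMA and deposited log2 signals, 1 column per array, which were used as deposited. The methods name GeneSpring GX 13.0 and the labels Affymetrix Expression Console for this step, and the values do not show which was used. RMA equalises the distributions of the arrays, so a shift of all RNA would not be seen. No genome build enters the values. The number of arrays limits the precision.

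Of 22277 probe sets, 62 controls were left out. limma 3.58.1 in R 4.3.3 fitted 1 mean per group over all 12 arrays with empirical Bayes moderation, and TQ minus 5-FU was adjusted by Benjamini-Hochberg over 22215 probe sets at 0.05 (two-sided). The fit was repeated without 5-FU replicate 3. ANOVA with Tukey's HSD and a t-test, named in the methods, were alternatives. An exact permutation test of 3 arrays against 3 cannot go below a p of 0.1 and was not run.

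GEO's platform annotation, which can be old, gave 19064 probe sets 1 gene, 1043 several and 2108 none. For each of 11963 genes the probe set of highest mean signal stood for the gene. Of 1021 genes written into 32 lists, 893 were measured. A rule chose the 15 genes highest with each drug among those past both fits at 2-fold without overlap. It also chose each list's lead gene and up to 4 members past both fits. Further choices were 8 genes with drug means on opposite sides of control, and 6 genes the study measured otherwise. Of the 141 genes chosen, 28 did not pass over all arrays, and not all are described above. Lead genes left undescribed include FOS (0.01, limma adjusted p = 0.98), NCL (1.49, 0.095), SF3B1 (1.66, 0.093) and HSPA5 (0.93, 0.16). Further list members were named after their values were seen. The members, lists and rules were chosen with earlier results of these data known.

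Promoter windows came from RefSeq (GRCh38.p14) and were matched by symbol. The fits were tested on simulated data. Python 3.11.15 with matplotlib 3.10.9 drew the figures.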

Additional observations from a re-analysis of the deposited data

Results flagged for a closer look

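The poly-A spike-in control probe sets, which no comparison used, read a mean of 9.47 in 5-FU replicate 3 over 24 probe sets. This lay above the control arrays (8.50 to 8.97) and above every other array (8.22 to 8.97). The array is the one that stood apart from its replicates, and the part of the spike-in signal in the differences between TQ and 5-FU was not tested.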

How the results depend on the processing

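Over all arrays 2262 probe sets differed, 794 higher with TQ and 1468 higher with 5-FU, 973 of them by 2-fold. Limma on the 6 TQ and 5-FU arrays gave 196 (48 and 148, 189 by 2-fold), and on 5 of these without 5-FU replicate 3 it gave 5952 (3103 and 2849). Without 5-FU replicate 3 and TQ+5-FU replicate 2 the count was 6351 (3117 and 3234), so the share higher with TQ was 49.1% against 35.1%. One-way ANOVA with Tukey's HSD, the tests that the methods name, gave 1319 as run here, with Benjamini-Hochberg adjustment of the ANOVA p over all probe sets (464 and 855, 438 by 2-fold). The methods' t-test, which the study used against control, gave 3226 unadjusted (1222 higher with TQ) and 99 after Benjamini-Hochberg (12 and 87, 59 by 2-fold). Array weights, whose estimation did not converge fully, gave 12752 (5616 and 7136). Leaving out 1 array at a time gave 728 (without TQ replicate 3) to 4213 (without 5-FU replicate 1), 172 to 1601 higher with TQ, 546 to 2612 higher with 5-FU and 450 to 2048 by 2-fold.

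Whether the replicate numbers pair the samples is not given by the labels. Deviations of TQ and 5-FU arrays of the same number from their group means correlated at -0.646, 0.484 and -0.364. These values cannot decide it, because deviations within a group cancel out and 5-FU replicate 3 stood apart. With the replicate number as a block 1527 probe sets differed, 507 of them higher with TQ. Chosen after seeing the data, the block without 5-FU replicate 3 gave 2070 (611 by 2-fold), Tukey's HSD without that array 2437 (476 by 2-fold) and centring without it 2776. Quantile normalization (1992), centring of arrays (1883), another variance prior (2147) and a filter on the dimmest 30% (2364) moved the count by less than 1.5 times.

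Of 141 genes named by rule, 113 passed over all arrays. Most had to pass without 5-FU replicate 3 to be named, so that fit is no check of them. Of the 113, 61 passed without TQ replicate 3 and 35 on the TQ and 5-FU arrays alone. SQSTM1, an autophagy receptor that did not pass over all arrays, changed sign with array weights (0.14). Reading each gene from its probe set with the largest interquartile range gave 20 NF-κB, 13 p53 and 12 ribosome biogenesis calls, 8 splicing calls in place of 4 and 5 EMT calls with 5-FU in place of 3.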
